A study of Mus musculus with 9 samples.

Results

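Vascular endothelial cells of the fetal mouse midbrain were followed through 10 marker genes: Pecam1, Cdh5, Cldn5, Esam, Kdr, Flt1, Tek, Tie1, Eng and Emcn. They were named by symbol as markers of vascular endothelium, with earlier results of these data known. All 10 were found among the 21356 distinct gene symbols of the deposited table. All 10 also passed the filter on low expression that left 14029 genes for testing. The vessels of the brain come from outside it: endothelial cells grow into the neural tube from a surrounding plexus, drawn by vascular endothelial growth factor (VEGF), and Wnt7 ligands from neural progenitors then induce the properties of the blood-brain barrier. The angiopoietin and Tie receptors steady the growing vessels, endoglin tunes their response to ligands of the TGF-beta and BMP family, and cadherins, claudins and immunoglobulin-type adhesion proteins hold neighbouring endothelial cells together.

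RNA sequencing was performed on midbrain tissue of C57BL/6 fetuses at E13.5, with 3 libraries for each of 3 genotypes. The floxed control was Gpr161 f/f without Cre, the Cre control was Gpr161 f/+;Wnt1-Cre, and the cKO was Gpr161 f/f;Wnt1-Cre, so every group carried at least 1 floxed allele of Gpr161, a ciliary receptor that restrains Shh signaling. Wnt1-Cre recombines in the dorsal neuroectoderm of the midbrain and in neural crest cells, and the sources used here do not describe recombination in endothelial cells. The question asked of the endothelial genes was whether their expression in the dissected tissue differed between cKO and either control, and between the 2 controls. The labels only number the libraries of a genotype, so the p-values below measure the spread between these libraries.

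The libraries were first checked against their labels. Gpr161 itself was not lower in cKO: its log2 value (mean ± SD, n = 3 each) was 11.77 ± 0.030 in floxed controls, 11.88 ± 0.096 in Cre controls and 11.88 ± 0.12 in cKO, a log2 difference of 0.11 from the floxed control (adjusted p = 0.223, limma). That value is for the gene as a whole and does not separate the floxed segment from the rest of the transcript. Wnt1, which the Wnt1-Cre transgene is known to raise, lay between 9.08 and 9.25 in the floxed controls, between 10.89 and 11.01 in the Cre controls and between 10.57 and 10.80 in cKO, so all 6 Cre libraries stood above all 3 floxed controls. The midbrain genes Otx2 and En1 were high in all 9 libraries, at 11.28 or more and 10.50 or more on the log2 scale. Pax7, also of the midbrain list, had mean log2 values of 10.42, 10.26 and 9.94 in floxed controls, Cre controls and cKO. Of the 6 midbrain genes tested, 1 was lower for cKO against the floxed control at an adjusted p under 0.05 (limma). The forebrain gene Emx1 was below the filter. Six3, from the same list of forebrain and hindbrain genes, passed it and lay between 9.16 and 9.65 in all 9 libraries. Hoxa2, a hindbrain gene, was at 6.48 to 6.88 in the floxed controls, 5.53 to 6.13 in the Cre controls and 5.68 to 5.82 in cKO, so the floxed controls stood above the other 6 libraries, and the part of this in the endothelial values was not tested.

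The promoters of the members were examined for what they share in sequence. RefSeq promoters, 250 bases before to 50 bases after the gene start on GRCm38.p6, were at hand for 7 members, Kdr, Flt1, Tek, Tie1, Emcn, Cldn5 and Eng. Pecam1, Cdh5 and Esam were not matched. ETS family transcription factors, which bind a GGAA core, are well known activators of endothelial genes. The motif AGGAAG, searched on both strands (CTTCCT on the other), was found in 4 of the 7 promoters, those of Flt1, Tie1, Emcn and Eng, with 2 matches in each, against 35.4% of all 32851 promoters of the same length. These 4 are shown because they carry the motif. Each of the 4 genes was called above the floxed control in cKO. So were Tek, whose promoter lacks AGGAAG, and Pecam1, whose promoter was not matched. Kdr and Cldn5, also without the motif, were not called. A link between motif and call was not tested. The capitals mark the matches. They lie at chr5:147725962-147726261 on the minus strand for Flt1, chr4:118489800-118490099 on the minus strand for Tie1, chr3:137340828-137341127 on the plus strand for Emcn and chr2:32646345-32646644 on the plus strand for Eng.
Flt1: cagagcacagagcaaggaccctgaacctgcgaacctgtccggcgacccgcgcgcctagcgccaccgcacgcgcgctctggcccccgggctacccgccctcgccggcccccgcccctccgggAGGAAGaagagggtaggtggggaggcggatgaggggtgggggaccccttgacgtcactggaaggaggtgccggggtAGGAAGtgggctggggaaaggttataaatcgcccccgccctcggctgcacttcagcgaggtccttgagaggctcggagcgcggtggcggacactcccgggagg
Tie1: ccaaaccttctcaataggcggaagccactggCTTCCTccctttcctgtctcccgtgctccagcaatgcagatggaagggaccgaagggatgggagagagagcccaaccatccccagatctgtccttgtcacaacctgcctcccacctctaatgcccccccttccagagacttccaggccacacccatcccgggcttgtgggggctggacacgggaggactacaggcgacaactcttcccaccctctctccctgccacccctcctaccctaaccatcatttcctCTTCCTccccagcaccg
Emcn: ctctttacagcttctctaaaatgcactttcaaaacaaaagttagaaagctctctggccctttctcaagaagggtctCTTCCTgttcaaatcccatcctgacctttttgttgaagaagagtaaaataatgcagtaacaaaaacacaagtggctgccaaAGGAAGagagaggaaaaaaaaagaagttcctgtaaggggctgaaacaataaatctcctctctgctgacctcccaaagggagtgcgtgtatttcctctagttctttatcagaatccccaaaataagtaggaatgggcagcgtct
Eng: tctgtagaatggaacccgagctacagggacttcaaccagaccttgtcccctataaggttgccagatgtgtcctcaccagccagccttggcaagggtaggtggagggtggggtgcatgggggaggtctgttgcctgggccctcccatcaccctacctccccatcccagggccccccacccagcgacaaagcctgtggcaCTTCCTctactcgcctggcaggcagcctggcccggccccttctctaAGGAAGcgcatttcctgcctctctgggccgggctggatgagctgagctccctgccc

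The matches began 129 and 53 bases before the start in Flt1, 219 bases before and 33 bases after it in Tie1, 174 and 93 bases before it in Emcn, and 52 and 6 bases before it in Eng. A second ETS motif, CAGGAA, which overlaps the first by most of its letters, was in 4 of 7 promoters, Tek, Tie1, Emcn and Eng, against 30.6% of all promoters. The other motifs were likewise searched on both strands. The bare core GGAA was in 6 of 7, all but Cldn5, and in 96% of all promoters, so that its presence does not mark out these genes. The SOX motif ACAAAG was in 2 of 7 (Tek and Eng) against 18.7%, and the AGATAA motif of GATA factors in 1 of 7 (Tek) against 11.2%. The forkhead motif TAAACA was in none of the 7, against 13.4% of all promoters. The same was true of the hypoxia response motif ACGTG, against 19.6%, and of the TCF/LEF motif TTCAAAG, against 5.14%. These matches describe letters in a window and are no evidence of binding.

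In the whole tissue, the endothelial genes were modestly above the floxed control in cKO. Each of the 10 members had a higher mean in cKO, by between 0.12 (Cldn5) and 0.49 (Eng) on the log2 scale, with a median difference of 0.27 against 0.011 over all genes tested. Of the 10, 6 passed the test at an adjusted p under 0.05, all of them higher: Eng, Emcn, Flt1, Tek, Tie1 and Pecam1. In that comparison 38.3% of all genes tested passed, 19.5% in the higher direction, so calls were common in this contrast. None of the 10 reached the study's limit for a differentially expressed gene (DEG), which adds a fold change over 1.5 and was met by 2.92% of all genes. In bulk tissue, more endothelial cells in a sample and more RNA of these genes per endothelial cell cannot be told apart.

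Against the Cre control, which shares the cKO libraries with the comparison above, no member passed. Of the 10, 9 had a higher mean in cKO and the median difference was 0.15, against 0.012 over all genes. In limma 0 of 10 members were called where 9.72% of all genes were, a share that ran from 1.69% without cKO 1 to 23.5% without Cre control 1. Here 2 members, Emcn and Eng, had an unadjusted p under 0.05, as had 29.3% of all genes. The Cre control in turn had higher means than the floxed control for all 10 members, with a median difference of 0.15 against -0.0010, which fell to 0.061 without floxed control 1 and to 0.093 without Cre control 2. In this comparison 0 of 10 were called in limma where 0.057% of all genes were. Flt1 alone had an unadjusted p under 0.05 there in limma, as had 17.5% of all genes. From lowest to highest the group means ran from the floxed control through the Cre control to cKO for 9 of the 10 members, with Cldn5 the exception, but neither neighbouring step of that order passed the test for any member.

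**Figure D1:**
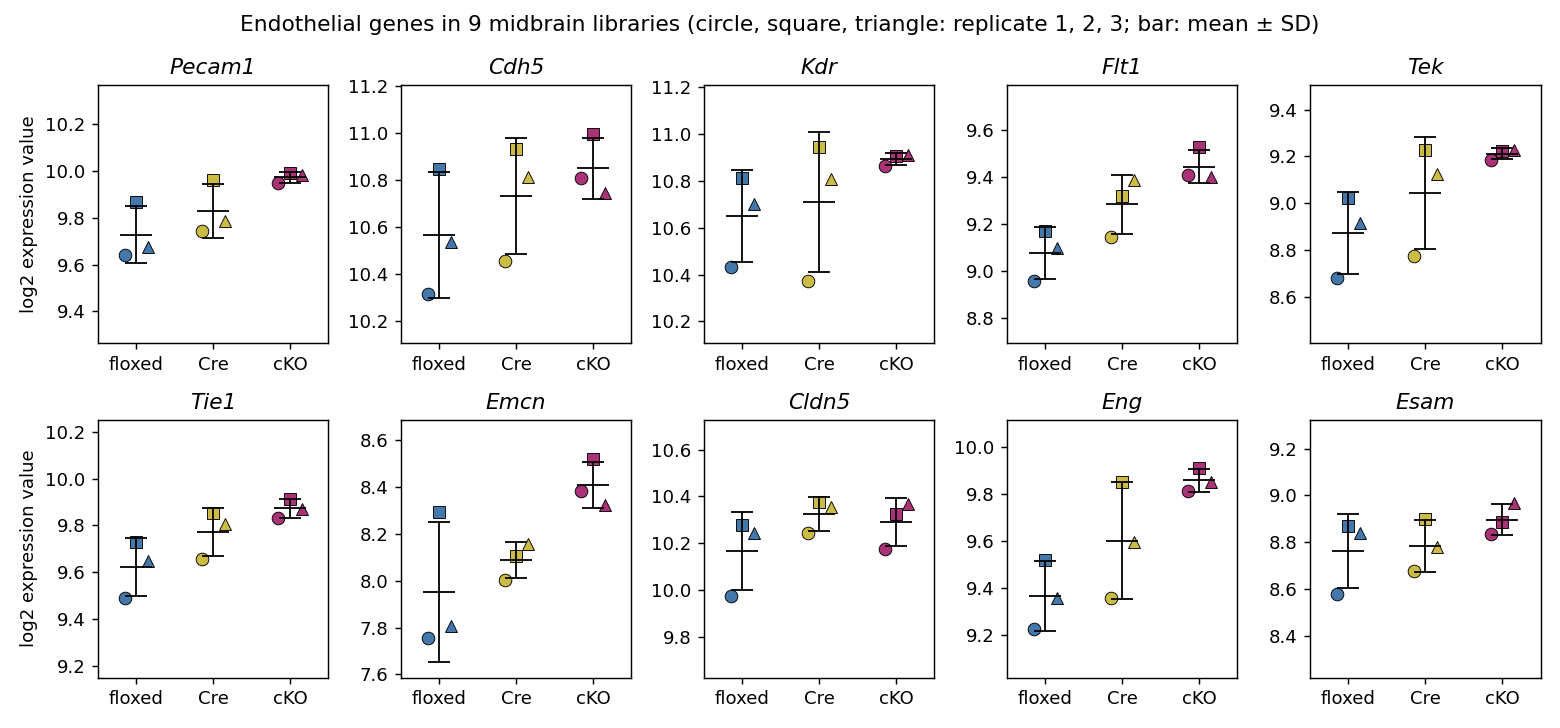
Log2 expression value (y axis) of each of the 10 endothelial genes in the 3 floxed control, 3 Cre control and 3 cKO libraries (x axis), with circles, squares and triangles for replicates 1, 2 and 3 and bars for the mean ± SD; each panel spans the same number of log2 units around its own gene. The circles of the floxed and Cre controls are the lowest points of their groups in all 10 panels, and the cKO points of Flt1 and Emcn lie above all 6 control points.

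Per kilobase of transcript, on the linear scale (cpm per kb, where cpm are the linear values scaled to the same total in each library), Cldn5 had the highest level in the floxed control, 30.1, followed by Cdh5 at 14.2 and Kdr at 10.1. Pecam1 was at 9.12, Esam at 8.63, Eng at 7.15, Tie1 at 6.90, Tek at 3.74, Emcn at 3.59 and Flt1 at 2.90. The order in cKO differed in that Eng (9.93) passed Esam (9.35) and Emcn (4.81) passed Tek (4.66). No test was run between genes, and the lengths are those of the longest coding transcript in GENCODE M21.

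Pecam1 (chromosome 11, 106654217 to 106750628, minus strand, GRCm38) encodes CD31, an adhesion protein of endothelial junctions that platelets and leukocytes also carry. Its log2 values were 9.64, 9.87 and 9.67 in floxed controls 1 to 3, 9.74, 9.96 and 9.78 in Cre controls 1 to 3, and 9.95, 9.99 and 9.98 in cKO 1 to 3. Every cKO library was above every floxed control, and Cre control 2 reached into the cKO range. The log2 difference from the floxed control was 0.25 ± 0.072 (SE), a fold of 1.19 (95% interval 1.06 to 1.32, adjusted p = 0.0219), and from the Cre control 0.14 (adjusted p = 0.212).

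Cdh5 (chromosome 8, 104101625 to 104144511, plus strand) encodes VE-cadherin, the main adhesion protein of endothelial adherens junctions. The floxed controls had log2 values of 10.32, 10.85 and 10.53, the Cre controls 10.45, 10.93 and 10.81, and cKO 10.81, 10.995 and 10.75. The groups overlapped in both comparisons with cKO. The SD was 0.27 in the floxed control and 0.25 in the Cre control, beside differences of cKO of 0.28 from the floxed control (adjusted p = 0.147) and 0.12 from the Cre control (adjusted p = 0.619).

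Cldn5 (chromosome 16, 18776847 to 18778262, plus strand), the dominant claudin of brain endothelial tight junctions, differed least between cKO and either control. Its log2 values were 9.98, 10.28 and 10.24 in the floxed controls, 10.24, 10.38 and 10.35 in the Cre controls and 10.18, 10.32 and 10.37 in cKO. All 3 groups overlapped, and Cldn5 was the only member with a lower mean in cKO than in the Cre control. The difference of cKO was 0.12 from the floxed control (95% interval -0.061 to 0.31, adjusted p = 0.262) and -0.035 from the Cre control (-0.22 to 0.15, adjusted p = 0.806), and both intervals include 0.

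Esam (chromosome 9, 37528078 to 37538319, plus strand), an immunoglobulin-type adhesion molecule of endothelial tight junctions and platelets, was also not called. It was measured at 8.58, 8.87 and 8.84 in the floxed controls, at 8.68, 8.90 and 8.78 in the Cre controls and at 8.84, 8.89 and 8.97 in cKO. The groups overlapped, and the differences of 0.13 (adjusted p = 0.240) and 0.11 (adjusted p = 0.414) did not pass.

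The VEGF receptors gave unlike calls. Kdr (chromosome 5, 75932827 to 75978458, minus strand) encodes VEGFR2, the main signaling receptor for VEGF-A. Its log2 values were 10.43, 10.81 and 10.70 in the floxed controls, 10.37, 10.94 and 10.81 in the Cre controls and 10.86, 10.91 and 10.91 in cKO. All 3 cKO libraries were above all floxed controls, yet Cre control 2 held the highest value of all 9 libraries, and the differences of 0.24 (adjusted p = 0.176) and 0.18 (adjusted p = 0.385) did not pass.

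Flt1 (chromosome 5, 147561604 to 147726011, minus strand) encodes VEGFR1, which binds VEGF-A tightly and in its soluble form acts as a decoy. Its values were 8.96, 9.17 and 9.10 in the floxed controls, 9.14, 9.32 and 9.39 in the Cre controls and 9.41, 9.53 and 9.40 in cKO. The 3 cKO libraries were above all 6 controls, as for 14.7% of all genes. Flt1 rose by a fold of 1.29 over the floxed control (log2 0.37 ± 0.077, 95% interval of the fold 1.15 to 1.45, adjusted p = 0.00493), and its difference from the Cre control was 0.16 (adjusted p = 0.193). The difference in response between Flt1 and Kdr was itself not tested.

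Of the angiopoietin receptor pair, Tek (chromosome 4, 94739289 to 94874976, plus strand) encodes TIE2, the receptor of the angiopoietins. It read 8.68, 9.02 and 8.92 in the floxed controls, 8.78, 9.23 and 9.13 in the Cre controls and 9.19, 9.22 and 9.23 in cKO. The cKO libraries were above all floxed controls and within 0.05 of each other, and Cre control 2 was level with the highest of them. The log2 difference was 0.34 ± 0.12 from the floxed control, a fold of 1.26 (1.06 to 1.51, adjusted p = 0.0415), and 0.17 from the Cre control (adjusted p = 0.355).

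Tie1 (chromosome 4, 118471191 to 118490061, minus strand), the orphan partner of TIE2, had log2 values of 9.49, 9.73 and 9.65 in the floxed controls, 9.66, 9.85 and 9.81 in the Cre controls and 9.83, 9.91 and 9.87 in cKO. It too separated cKO from the floxed control and not from the Cre control. The fold over the floxed control was 1.19 (log2 0.25 ± 0.070, 1.07 to 1.32, adjusted p = 0.0188), and the log2 difference from the Cre control was 0.10 (adjusted p = 0.364).

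Eng (chromosome 2, 32646595 to 32682669, plus strand) encodes endoglin, a co-receptor for BMP9 and TGF-beta that is high on proliferating endothelium. It had the largest difference of the 10 members from the floxed control. Its log2 values were 9.22, 9.52 and 9.36 in the floxed controls, 9.36, 9.85 and 9.60 in the Cre controls and 9.81, 9.91 and 9.85 in cKO. The cKO libraries were above all floxed controls, and Cre control 2 was level with cKO 3. The fold was 1.41 over the floxed control (log2 0.49 ± 0.11, 1.18 to 1.68, adjusted p = 0.00768) and 1.19 over the Cre control (log2 0.26, 1.003 to 1.42, adjusted p = 0.164).

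Emcn (chromosome 3, 137341067 to 137432185, plus strand) encodes endomucin, a sialomucin of capillary and venous endothelium. It was measured at 7.76, 8.29 and 7.81 in the floxed controls, at 8.004, 8.10 and 8.16 in the Cre controls and at 8.38, 8.52 and 8.32 in cKO. Like Flt1, it was higher in all 3 cKO libraries than in all 6 controls, although the highest floxed control, at 8.29, lay next to the lowest cKO library, at 8.32. The fold was 1.37 over the floxed control (log2 0.46 ± 0.13, 1.13 to 1.66, adjusted p = 0.0171) and 1.25 over the Cre control (log2 0.32, 1.03 to 1.51, adjusted p = 0.126).

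**Figure D2:**
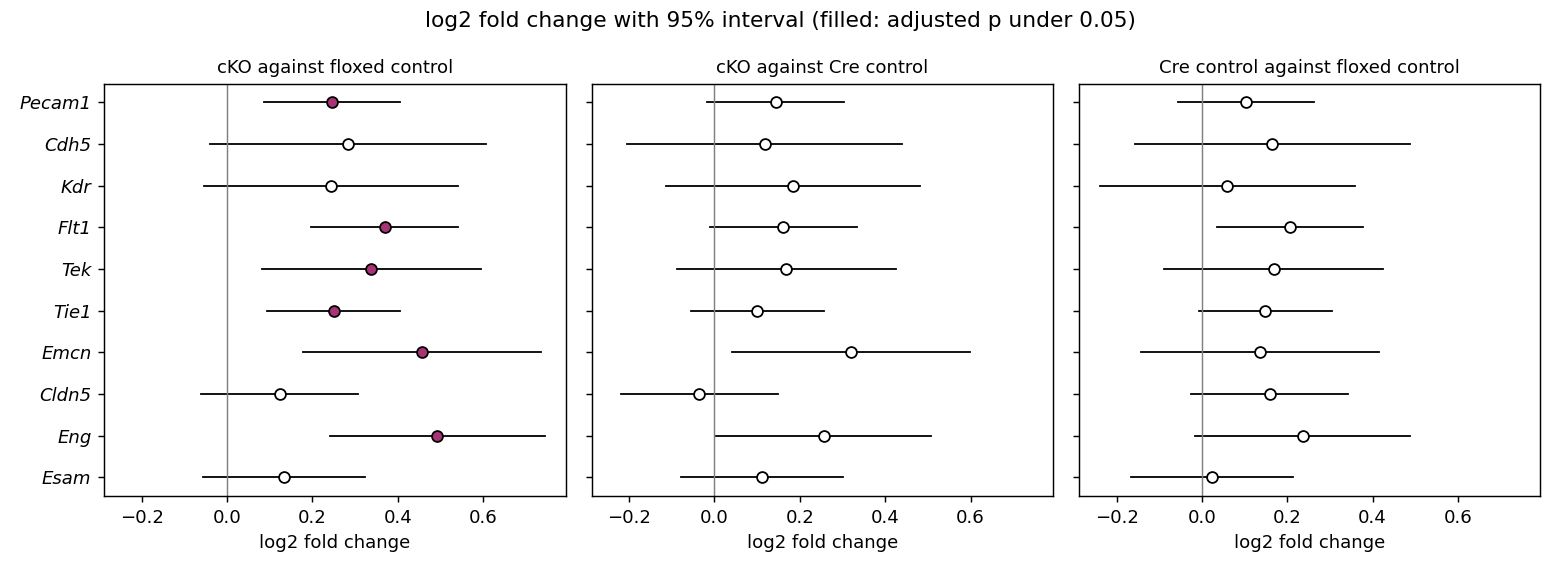
Log2 fold change (x axis) of each of the 10 endothelial genes (y axis) in the 3 comparisons, with 95% intervals as lines and filled points for an adjusted p under 0.05. The 6 filled points are all in the comparison of cKO with the floxed control, and all 10 points of that panel and of the panel of the Cre control against the floxed control lie above 0.

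Counting libraries, every cKO library was above every floxed control for 7 of the 10 members, against 29.9% of all genes. The same held against the Cre control for 2 members (17.8% of all genes), and 0 members separated the Cre control from the floxed control in this way (10.7% of all genes). Several members lost their call when 1 library was left out. Such fits called from 25.7% (without cKO 1) to 46.7% (without Cre control 1) of all genes against the floxed control, beside 38.3% with all 9. A lost call need not mean a smaller difference. Of 29 differences of named genes that lost it without floxed control 3, 16 were at least as far from 0 as before. Flt1 and Eng kept an adjusted p under 0.05 with each of the 9 libraries left out in turn, with highest adjusted p of 0.0219 and 0.0327. Tie1 lost its call without floxed control 1 or cKO 2 (adjusted p up to 0.0686), and Emcn without floxed control 1, floxed control 3 or cKO 2 (up to 0.0693). Pecam1 lost it without floxed control 1 or 3 or any of the cKO libraries (up to 0.0837), and Tek without those or Cre control 3 (up to 0.148). The number of members called therefore ran from 2 (without floxed control 1 or without cKO 2) to 7, with 3 called without floxed control 3. Of all genes, 28.3% were called without floxed control 1, 30% without cKO 2 and 26.7% without floxed control 3. Cdh5 came under the threshold without floxed control 2 (adjusted p = 0.0374), Kdr without Cre control 1 (0.0396), and Emcn against the Cre control without floxed control 2 (0.0297).

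The members moved together from library to library within a genotype. Floxed control 1 and Cre control 1 were the lowest of their groups for all 10 members. Floxed control 2 was the highest of its group for all 10 members and Cre control 2 of its group for 8. In cKO, replicate 1 was the lowest for 7 members and replicate 2 the highest for 6. The mean log2 value over the 10 members was 9.31, 9.64 and 9.48 in the floxed controls, 9.44, 9.75 and 9.66 in the Cre controls and 9.72, 9.82 and 9.76 in cKO. Cre control 2 thus exceeded cKO 1, and the cKO libraries were closer to each other than those of either control (SD of this mean 0.048 in cKO, 0.17 and 0.16 in the floxed and Cre controls). The SD was smaller in cKO than in both controls for 8 of the 10 members; the difference in spread was not tested. Without replicate 1 of both controls, an alternative chosen after seeing the data, 4 members were called against the floxed control, with 0 for the Cre control, and the median differences were 0.19 and 0.050. The second of these is less than the 0.15 found with all libraries by more than 1.5 times, and leaving out Cre control 1 alone gave the same 0.050.

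After the mean of each genotype was subtracted, the 45 pairs of members had Pearson correlations over the 9 libraries from 0.50 (Emcn with Esam) to 0.998 (Kdr with Tek), with a median of 0.82. Tie1 followed the mean of the other members most closely (r = 0.99) and Emcn least (r = 0.70). These points share libraries and normalization, and 3 degrees of freedom went to the genotype means, so the correlations are given as a description. Over the 14019 other genes the median correlation with the mean of the members was 0.075, and 4.64% of them exceeded 0.8. The 10 genes outside the list that were most alike were Adgrl4 (0.99), an adhesion receptor of endothelium, Maf (0.98), Add3 (0.98), the arterial transcription factor Hey2 (0.98), Rcor3 (0.98), Abca9 (0.98), Egflam (0.98), the endothelial C-type lectin Cd93 (0.97), the laminin chain Lamb1 (0.97) and Tmbim6 (0.97). Within this group Add3 and Hey2 exceeded the floxed control in cKO (log2 0.31 and 0.32, adjusted p = 0.00618 and 0.0114) while Maf was lower (-0.23, adjusted p = 0.0470).

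By list, the basement membrane genes had the highest median correlation with the members of the lists fixed for this work, and the midbrain genes (-0.22) and the Wnt7 signaling genes (0.11) the lowest. More than 0.8 was reached by 12 of 28 other endothelial genes (median r = 0.76), 5 of 14 VEGF and angiopoietin genes (0.74), 8 of 15 barrier genes (0.81), 7 of 11 basement membrane genes (0.83) and 4 of 18 mural cell genes (0.65). Genes of the meninges and head mesenchyme, a tissue that lies against the midbrain, had a median of 0.74, with 4 of 10 above 0.8, and microglia and macrophage genes a median of 0.69, with 2 of 14 above it. Erythroid genes had a median of 0.24, with 0 of 13 above 0.8, and the Wnt7 signaling genes had 2 of 11 above it.

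**Figure D3:**
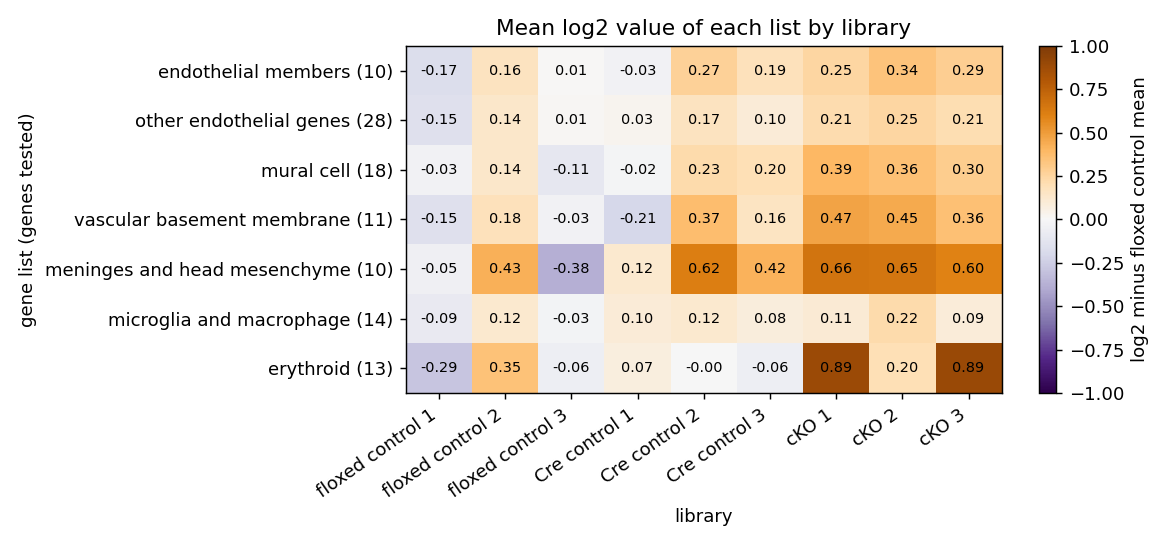
Mean log2 value of 7 gene lists (rows, with the number of genes tested) in each of the 9 libraries (columns), as the difference from the mean of the floxed controls, printed in each cell and coloured from violet (lower) to brown (higher). The endothelial members are lowest in floxed control 1 (-0.17) and highest in cKO 2 (0.34), the meninges and head mesenchyme list spans -0.38 to 0.66, and the erythroid list stands out in cKO 1 and cKO 3 (both 0.89).

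Other cell types in the dissected tissue differed between the same groups. Of the genes of the meninges and head mesenchyme, 10 of 10 tested had a higher mean in cKO relative to the floxed control, with a median of 0.69. Of these genes 8 were called, where 19.5% of all genes were called higher. They included the fibroblast genes Lum (log2 0.72, adjusted p = 0.00438), Dcn (0.49, 0.00825) and Col3a1 (0.77, 0.00832), which kept their calls with any library left out. Their summed level was 1126 to 2073 cpm in the floxed controls, 1475 to 2403 in the Cre controls and 2387 to 2507 in cKO, and none of the 10 was at or near 0. The count of 8 fell to as few as 3 when single libraries were left out (floxed control 1 or 3, or any cKO library, moved it by over 1.5 times). Against the Cre control 0 of the 10 were called, where 9.72% of all genes were, with a median of 0.24. There 2 had an unadjusted p under 0.05, as had 29.3% of all genes, and 1 was called without floxed control 2, where 7.7% of all genes were.

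The erythroid genes were higher in cKO for 13 of 13 genes tested. Relative to the floxed control 7 were called, where 19.5% of all genes were called higher, with a median of 0.69. Relative to the Cre control 5 were called, where 4.86% of all genes were called higher, with a median of 0.73. The summed level was 5668 to 9682 cpm in the floxed controls, 6768 to 7968 in the Cre controls, and 15152, 8773 and 16787 in cKO 1, 2 and 3, so cKO 2 lay inside the range of the floxed controls while cKO 1 and cKO 3 did not. The embryonic globins led: Hba-x by 1.02 (adjusted p = 0.00783) and Hbb-y by 0.96 (0.0114). Reads of the near-identical globin genes may have been shared between copies. The number called against the floxed control ran from 1 to 12 with 1 library left out, and fell by over 1.5 times without floxed control 1 or 3 or cKO 1 or 3. It rose to 12 without floxed control 2 or without cKO 2, where 34.4% and 30% of all genes were called. The 5 calls against the Cre control fell to 1 without floxed control 3 and to 0 without Cre control 2 or 3 or cKO 1 or 3. Within cKO the mean of the endothelial members was highest in cKO 2, the library with the lowest erythroid level.

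Of the 14 microglia and macrophage genes, 12 were higher and 1 was called, Tmem119 (0.61, adjusted p = 0.00883). The count was 6 without floxed control 2 and 3 without Cre control 1, where 34.4% and 46.7% of all genes were called. Tmem119 was lowest in floxed control 3 (log2 7.78), as was the mean of the mesenchyme genes. The mean of the microglia and macrophage genes was lowest in floxed control 1. With the mean of the mesenchyme genes as a covariate, Tmem119 was at 0.13 (adjusted p = 0.387, limma). Which cells its transcripts came from was not tested. The summed level of this list was 174 to 215 cpm in the floxed controls, 198 to 214 in the Cre controls and 198 to 227 in cKO. Megakaryocyte and platelet genes, which matter because platelets carry Pecam1 and Esam, summed to 22.7 to 26.7 cpm, 24.1 to 25.6 and 25.4 to 26.8 in the 3 groups, with 5 of 8 genes passing the filter and 1 called, lower (Gp1bb, -0.27, adjusted p = 0.0338, lost without floxed control 1 or 3 or cKO 2 or 3, up to 0.117), and 2 called without floxed control 2. The summed level of the 10 endothelial members was 269 to 345 cpm in the floxed controls, 298 to 376 in the Cre controls and 354 to 380 in cKO. With the mean of the mesenchyme genes in the fit, an alternative chosen after seeing the data, 0 members were called against the floxed control. Their median difference was 0.075. The calls over all genes went from 5380 to 1805 in that fit, or 12.9% of genes, with 7.04% called higher. With the mean of the erythroid genes as a covariate, 0 members were called as well, with a median of 0.22, while the calls over all genes went from 5380 to 527. Both covariates are themselves higher in cKO, and they take a degree of freedom from 9 libraries. The part of either cell type in the endothelial differences was not tested beyond these values.

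The other genes of the endothelium were compared in lists written for their roles. Among 28 further endothelial genes, 26 had a higher mean in cKO (floxed control as reference) and the median was 0.19. Of the 28, 9 were called, all higher, where 19.5% of all genes were called higher. Vwf, the von Willebrand factor of endothelial storage granules, rose by 0.84 (fold 1.79, adjusted p = 0.00173) and was the only DEG of the list. Ecscr (0.37, 0.00259), Egfl7 (0.42, 0.00284) and Plvap, a component of fenestral diaphragms that brain capillaries lose as the barrier forms (0.55, 0.0114), were called and kept the call with any library left out. Sox18 (0.24, 0.0271) and Clec14a (0.45, 0.0292) were called and lost it without floxed control 3, cKO 1 or cKO 3, without floxed control 1 (Sox18) and without cKO 2 (Clec14a), with adjusted p up to 0.0978. The ETS factor Erg (-0.037, adjusted p = 0.667) and Sox17 (0.11, 0.169) were not called. The count of 9 ran from 4 to 13, and fell by over 1.5 times without floxed control 1 or 3 or cKO 1 or 3.

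Of the ligands and partners of the VEGF and angiopoietin receptors, 13 of 14 had a higher mean in cKO with the floxed control as reference. Of the 14, 7 were called, all higher, where 19.5% of all genes were called higher. Vegfa, the ligand of Kdr and Flt1, was higher by 0.16 (adjusted p = 0.0297, lost without floxed control 2 or 3 or cKO 2 or 3, up to 0.110), yet by 0.017 over the Cre control (adjusted p = 0.843). Vegfb, which binds Flt1 and not Kdr, was higher by 0.20 (0.00413), and Pgf, a further Flt1 ligand, by 0.14 (0.143, not called). Vegfc (0.083, 0.498) and the co-receptor Nrp1 (-0.18, 0.283) were not called. Angpt1, the agonist of TIE2, was higher by 0.36 (0.0237, lost without floxed control 1 or 3 or cKO 1 or 2, up to 0.0803), Angpt2, its context-dependent antagonist, by 0.20 (0.174, not called), and Ptprb, the phosphatase that restrains TIE2, by 0.24 (0.0252, lost without the same libraries as Angpt1, up to 0.0967). The peptide ligand Apln rose by 0.70 (fold 1.62, 0.000725) and its receptor Aplnr by 0.34 (0.0250, lost without floxed control 1 or cKO 1 or 2, up to 0.0758). Adm, which encodes the vasodilator adrenomedullin, rose by 0.56 (0.00197). Mean log2 values in the floxed control, Cre control and cKO were 9.35, 9.69 and 9.72 for Angpt1. They were 8.64, 8.82 and 8.89 for Ptprb, 8.27, 8.71 and 8.97 for Apln and 6.01, 6.05 and 6.57 for Adm. All 3 Cre controls stood above all floxed controls for 5 of the 14 genes: Vegfa, Vegfb, Angpt1, Ptprb and Apln. The same held for 10.7% of all genes. The 7 calls fell to 3 at the fewest, and by over 1.5 times without floxed control 1 or 3 or cKO 1 or 2.

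Around endoglin, 7 of 9 tested genes of TGF-beta and BMP signaling lay higher in cKO relative to the floxed control. Of the 9, 4 were called, all higher, where 19.5% of all genes were called higher. Acvrl1, the ALK1 receptor that acts with endoglin, rose by 0.44 (fold 1.36, adjusted p = 0.00470), Id3, a target of BMP signaling, by 0.33 (0.00221), and both kept the call with any library left out. Smad6 (0.22, 0.0254) and Tgfbr2 (0.34, 0.0411) lost it without each of floxed control 1, floxed control 3 and the 3 cKO libraries, Tgfbr2 also without Cre control 3 (up to 0.146). The count of 4 fell to 2 without each of these 5 libraries. The BMP9 and BMP10 genes Gdf2 and Bmp10 were below the filter in all 9 libraries. None of the list was called against the Cre control, where 9.72% of all genes were. There 5 had an unadjusted p under 0.05, as had 29.3% of all genes, and the median was 0.17. Without Cre control 1, 2 were called, where 23.5% of all genes were.

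Wnt7 signaling to brain endothelium gave a mixed picture. Of 11 genes, 6 exceeded the floxed control in cKO and 4 were called, all higher. Of all genes, 38.3% were called in that comparison, 19.5% in the higher direction. The ligand Wnt7a (0.26, adjusted p = 0.00459) was higher and Wnt7b (-0.10, 0.265) was not called. Of the receptor complex that reads Wnt7 on endothelial cells, Adgra2 (GPR124) was higher by 0.53 (0.0195, lost without floxed control 1 or 3 or cKO 2, up to 0.0782). With the mesenchyme genes as a covariate Adgra2 was at 0.017 (adjusted p = 0.917, limma). Reck (0.26, 0.204) and Fzd4 (0.18, 0.147) were not called. The Wnt target genes Apcdd1 (0.57, 0.000451) and Nkd1 (0.24, 0.00601) rose, whereas Lef1 was at -0.087 (0.453) and Axin2 at -0.038 (0.442). For Nkd1 the mean in cKO was level with that of the Cre control (11.94 in both), and all 3 Cre controls stood above all floxed controls. These genes are also used by neural progenitors, so their tissue levels are not specific to vessels.

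Among 15 genes of barrier junction and transport, 11 were higher relative to the floxed control, with a median of 0.085. Of the 15, 4 were called higher and 3 lower, where 19.5% of all genes were called higher and 18.8% lower. The transporters Slc2a1, the glucose transporter of barrier endothelium (0.60, fold 1.51, adjusted p = 0.00411), and Slc16a1, a monocarboxylate transporter (0.47, 0.00122), rose, as did Lsr, a protein of tricellular junctions (0.30, 0.0132), and Itih5 (0.36, 0.0127). Mean log2 values in the floxed control, Cre control and cKO were 8.47, 8.72 and 8.77 for Lsr and 9.80, 10.09 and 10.16 for Itih5. They were 11.47, 11.69 and 12.07 for Slc2a1 and 9.19, 9.37 and 9.66 for Slc16a1. Spock2 (-0.40, 0.00994) fell, Slc38a5 was lower by -0.26 (0.0431, lost without any of the floxed controls, Cre control 2, cKO 1 or cKO 2, up to 0.145), and Slco1c1, a thyroid hormone transporter named after its values were seen, was at -0.65 (0.0436, lost without floxed control 2 or 3, Cre control 3 or any cKO library, up to 0.142). The junction genes Ocln (-0.15, 0.522) and Tjp1 (0.00072, 0.995), and the barrier genes Mfsd2a (0.011, 0.927) and Abcb1a (0.017, 0.891), were not called. In the floxed controls the mean level was 105 cpm for Slc2a1 and 181 for Spock2, beside 42.6 for Cldn5. Which cells of the tissue these transcripts came from was not tested.

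Genes of arterial, venous and tip cells, 16 in all, were called higher for 5 in a comparison where 19.5% of all genes were, with a median of 0.046 against 0.011 over all genes. The venous receptor Ephb4 rose by 0.47 (adjusted p = 0.000677), the chemokine receptor Cxcr4 by 0.25 (0.00367) and the arterial factor Hey2 by 0.32 (0.0114), while Hey1 (0.16, 0.0358) and Unc5b (0.33, 0.0468) lost their calls when any of floxed control 1, floxed control 3 or the cKO libraries was left out, Unc5b also without Cre control 2 (up to 0.165). The arterial ligand Dll4 (0.038, 0.728) and the venous factor Nr2f2 (-0.14, 0.252) were not called. The 5 calls fell to 3 without floxed control 3 or any cKO library. Several of these genes are also expressed by neural progenitors.

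**Figure D4:**
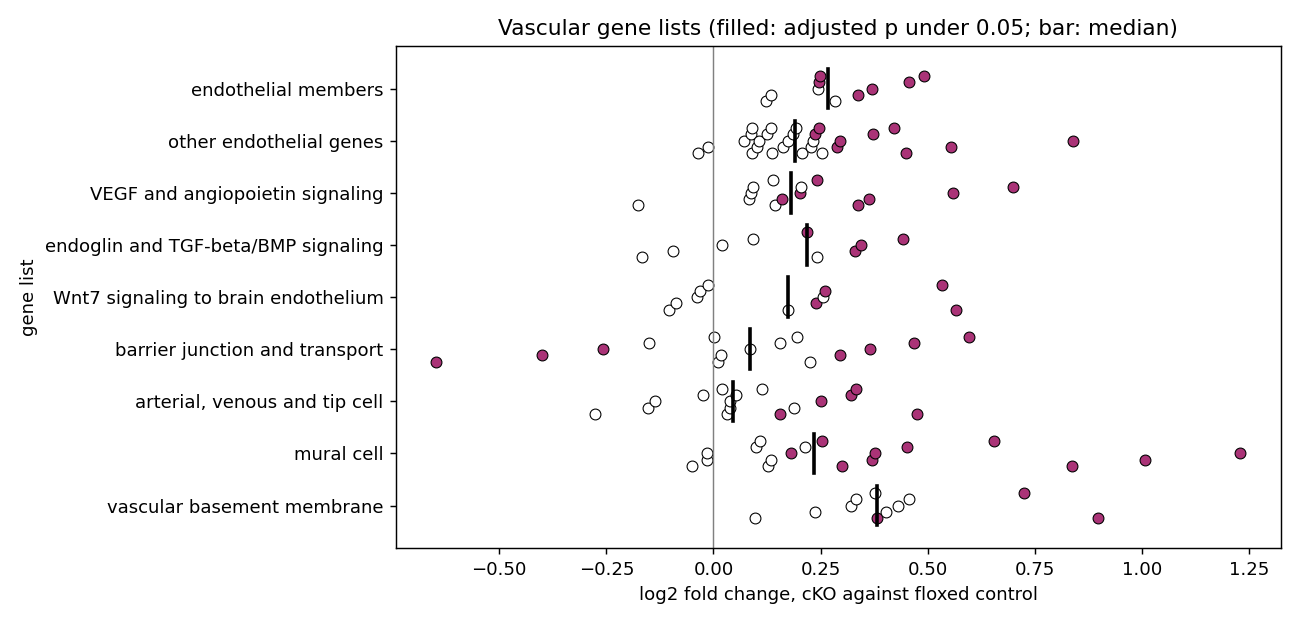
Log2 fold change of cKO against the floxed control (x axis) for each gene tested (points) of 9 vascular lists (y axis), with filled points for an adjusted p under 0.05 and a bar at the median of each list. The medians run from 0.046 for arterial, venous and tip cell genes to 0.38 for the vascular basement membrane, and filled points below 0 occur in the barrier list only, where there are 3.

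Genes of the layers around the endothelium included larger single differences than any of the members. In the comparison with the floxed control, 19.5% of all genes were called higher. In the vascular basement membrane 11 of 11 genes exceeded the floxed control in cKO, with a median of 0.38 and 3 called: the laminin chain Lama5 (0.90, fold 1.86, adjusted p = 0.000884), perlecan, Hspg2 (0.72, fold 1.65, 0.00308), and Sparc (0.38, 0.0138, lost without floxed control 1 or 3, up to 0.0586). The collagen IV chains Col4a1 (0.40, 0.0799) and Col4a2 (0.38, 0.106) were not called. The 3 calls became 6 without floxed control 2, 9 without Cre control 1 and 7 without Cre control 2. Of all genes, 34.4%, 46.7% and 38% were called in these 3 fits. Of 18 mural cell genes 15 were higher and 10 called, all higher, with a median of 0.23. With the mesenchyme genes as a covariate 0 mural cell genes were called in limma, where 12.9% of all genes were. With the erythroid genes 2 were called, where 3.76% of all genes were. The difference of Tagln went from 1.01 to 0.45 and 0.85. Those called without a covariate were contractile genes of smooth muscle, Tagln (1.01, fold 2.01, 0.00271) and Myl9 (0.84, 0.00529), and Notch3 (0.25, 0.00400), Heyl (0.38, 0.00386), Ndufa4l2 (0.30, 0.00199) and Anpep (0.66, 0.00959) among others. Several of these, Notch3, Ndufa4l2 and Anpep included, also mark pericytes. Of the other pericyte genes, Pdgfrb (0.13, 0.423), Rgs5 (-0.049, 0.612), Vtn (-0.014, 0.934), Abcc9 (-0.015, 0.938), Kcnj8 (0.13, 0.188) and Cspg4 (0.10, 0.270) were not called. The contractile genes are not specific to vessels. The mean level of Notch3 was 150 cpm in the floxed controls and 177 in cKO, beside 48.6 and 52.7 for Pdgfrb. Which cells the Notch3 transcripts came from was not tested. The summed level of the mural cell genes was 536 to 631 cpm in the floxed controls, 564 to 669 in the Cre controls and 686 to 759 in cKO.

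Against the Cre control, where no member was called, single genes of these lists were, in a comparison where 4.86% of all genes were called higher and 4.85% lower. The share called higher ran from 0.998% without cKO 1 to 10.9% without Cre control 1. Higher in cKO were Vwf (0.52, adjusted p = 0.0431), Adm (0.51, 0.0152), Apcdd1 (0.36, 0.0141), Slc16a1 (0.29, 0.0339), Ephb4 (0.26, 0.0321), Cxcr4 (0.33, 0.00749), Hey2 (0.30, 0.0456), Ndufa4l2 (0.29, 0.0135), Notch3 (0.22, 0.0294), Lama5 (0.70, 0.0136), Hspg2 (0.52, 0.0423) and, named after its values were seen, Des (0.20, 0.0467). Lower were the Wnt feedback gene Axin2 (-0.14, 0.0477) and the amino acid transporter Slc38a5 (-0.34, 0.0418). Of these 14 genes Cxcr4 alone kept its call with each library left out (adjusted p up to 0.0318). Adm and Apcdd1 lost it without Cre control 3 (0.0560 and 0.0521), Lama5 without cKO 1 (0.0535), Ndufa4l2 without Cre control 3 or cKO 1 (up to 0.0538), and the other 9 without 4 or more of the 9 libraries (up to 0.173). No gene of the vascular lists was called in limma when the 2 controls were compared, where 0.057% of all genes were. There 5 of the 28 other endothelial genes had an unadjusted p under 0.05, as had 17.5% of all genes. The members' median of 0.15 in that comparison stood beside 0.36 for the mesenchyme genes and 0.0076 for the erythroid genes.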

How the data were processed

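Poly-A selected RNA from dissected midbrain was sequenced by the authors. The authors deposited 1 table of log2 values. They had been normalized across libraries and shrunk where expression is low: the median SD over the 9 libraries was 0.096 for the 7378 rows with a mean of 8 to 11 and 0.0037 for 3567 rows with a mean below 0. The transformation is not given in the sources used here. The submitters' processing notes name FastQC 0.10.1, kallisto 0.46.1, DESeq2 and the mm10 build, without roles. No read counts were analysed here, so depth is unknown and no counting interval is given.

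Cpm values were computed by raising 2 to each deposited log2 value and scaling each library to a common sum (as cpm), so they are not read counts. The filter kept named genes that reached 1 cpm in 3 or more libraries, with the highest row per name. A mean for each genotype was estimated from the 9 libraries in limma 3.58.1 under R 4.3.3 (lmFit, contrasts.fit, eBayes with a trend), and two-sided p-values were adjusted by Benjamini-Hochberg over 14029 genes. A call is an adjusted p under 0.05. Folds are on the shrunk log2 scale and understate changes of low genes. In simulated data for cKO against the floxed control on 14029 genes, the fit recovered 58 of 100 genes changed by 0.3 and 99 of 100 changed by 1 (log2). Only these genes were changed there, and the noise of each gene was drawn on its own. In the data 38.3% of all genes were called and genes varied together, so recovery in the data may differ. An exact permutation test of 3 against 3 libraries cannot go below 0.1, so none was used. The members and lists were chosen with earlier results of these data known, so no test over a list was run. Named were the members, Gpr161, up to 6 called genes of a list by smallest p, the partners of members and the 10 genes most like them. Genes named as not called were examples picked after their values were seen. Positions are from GENCODE M21 (GRCm38) and promoters from RefSeq (GRCm38.p6).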

Additional observations from a re-analysis of the deposited data

How the results depend on the processing

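Of 19 alternatives, 17 of them planned, the filter on low values (5 called without it, 6 at 5 cpm), no trend (6), median centring (6), quantile normalization (5) and a fit of only the 6 libraries compared (7) kept the 6 members called against the floxed control within 1.5 times. The count was 0 with the erythroid covariate and 0 with the meninges and mesenchyme covariate, 4 without replicate 1 of both controls (this setting and the mesenchyme covariate were chosen after seeing the data), and 2 to 7 with 1 library left out. Against the Cre control it was 0 to 1 with 1 library left out. Calls over all genes against the floxed control were 527 with the erythroid covariate and 1805 with the mesenchyme covariate, beside 5380 with neither. The mesenchyme covariate moved the median difference of the members to 0.075 against the floxed control and to 0.0048 between the controls. The cause was not tested. Of 109 differences of named genes 76 were called. Of these, 70 lost their call with the erythroid covariate, 17 of them with a difference at least as large as before, 61 with the mesenchyme covariate, 7 of them so, and 4 to 32 with 1 library left out.

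With the mesenchyme covariate the sign turned for cKO against the floxed control in Angpt2 (-0.031), Cdh5 (-0.10), Kdr (-0.046), Pdgfra (-0.013), Reck (-0.19) and Vegfc (-0.15), against the Cre control in Cdh5 (-0.034) and Gpr161 (-0.0090), and between the controls in Cdh5 (-0.066), Emcn (-0.070), Esam (-0.042), Kdr (-0.12) and Pecam1 (-0.012). With 1 library left out the differences spanned 0 against the Cre control for Cdh5 (-0.022 to 0.22), Cldn5 (-0.076 to 0.022), Gpr161 (-0.054 to 0.071) and Vegfa (-0.013 to 0.060), and between the controls for Esam (-0.068 to 0.078) and Kdr (-0.058 to 0.23). Without replicate 1 of both controls the sign turned against the Cre control in Cdh5 (-0.022) and Gpr161 (-0.054), and between the controls in Esam (-0.014). Median centring turned Gpr161 against the Cre control (-0.0095). None of these turned differences passed the test, and Pdgfra alone had been called with all 9 libraries and no covariate.

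Libraries with the same replicate number had residual correlations of -0.027 to 0.26, and 7 of 9 libraries correlated best with their own number. With the number as a replicate block, 7 members were called against the floxed control, Cdh5 among them (adjusted p = 0.0204), and 1 against the Cre control, Eng (adjusted p = 0.0473). Libraries share only a number by their labels, so the samples were not taken as paired.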
